A study of Mus musculus with 24 samples.

Results

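Monocytic myeloid-derived suppressor cells (M-MDSCs) from spleens of tumour-bearing mice were compared between lymphodepleted and untreated animals of the wild-type (WT) label, over all genes with enough reads. Of the 23479 genes in the deposited table, 11054 had at least 10 normalized counts in at least 3 of the 6 libraries, and these are the genes described. A normalized count is a read count divided by 1 scaling factor of its library. The filter let 126 genes in through the 3 lymphodepleted libraries only and 86 through the 3 untreated libraries only, so those genes had to differ. In the table, 7235 genes had no read in the 6 libraries. The 336 genes just outside the filter, at the minimum in 2 libraries, had a median level of 8.26 normalized counts, and the 374 genes at the minimum in exactly 3 libraries had a median of 12.4.

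The study sequenced total RNA of sorted spleen MDSCs from C57BL/6 mice labelled WT and B6.129S2-Il6tm1Kopf/J mice labelled IL-6 KO, a germline knockout of the cytokine interleukin-6, in 24 libraries (8 groups of 3). All mice, controls included, carried tumours of B16, a mouse melanoma line, and treatment began in the lymphodepleted groups once tumours exceeded 25 mm2. Lymphodepleted mice received cyclophosphamide, an alkylating drug, and fludarabine, a purine analogue, and untreated mice had neither. Spleens of lymphodepleted mice were taken 7 days after treatment, and no day is recorded here for untreated mice. Cells were sorted to a stated purity of more than 99%. The design text names 3 mice for each of the WT groups. The sources used here give no doses, age, sex or sort markers. The groups used below are untreated and lymphodepleted M-MDSCs labelled WT, 3 libraries each, with M-MDSCs labelled KO and polymorphonuclear MDSCs (PMN-MDSCs) labelled WT for comparison. Total reads were 8716391, 8161696 and 7237462 in untreated libraries 1 to 3 and 11193088, 8394443 and 7815872 in lymphodepleted libraries 1 to 3, and the ribosomal transcript Rn45s took 7.53 to 14.4% of them. Values below are given in the order of libraries 1, 2 and 3.

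MDSCs are immature myeloid cells that accumulate in tumour-bearing hosts and restrain T cells. The monocytic kind descends from monocyte precursors and the polymorphonuclear kind from neutrophil precursors. Neutrophil precursors make their granule proteins in sequence, primary granule enzymes such as myeloperoxidase first, while they still divide, and secondary granule proteins such as lactoferrin later. Classical monocytes carry Ly6C, and non-classical monocytes, which patrol vessels, depend on the transcription factor Nr4a1. Cytotoxic chemotherapy empties the marrow, and the precursors that survive divide to refill it.

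The labels were checked first. Il6, the gene disrupted in the knockout, had 0, 0 and 0.944 normalized counts in the untreated and 0, 3.87 and 1.72 in the lymphodepleted WT-labelled M-MDSC libraries, below the filter. KO-labelled M-MDSC libraries held 16.2 to 45.3, so the gene was higher in the libraries labelled KO, against what that label says. The table counts whole genes, so whether these reads lie in the disrupted part cannot be seen. The libraries are therefore called WT-labelled and KO-labelled throughout. Within the WT label, the pan-leukocyte gene Ptprc (CD45) had 15117, 13871 and 15314 normalized counts in the untreated libraries and 10116, 9196 and 6026 in the lymphodepleted libraries and fell by 0.84 ± 0.26 (limma adjusted p = 0.0402, but 0.181 without lymphodepleted library 3, with the call also lost without untreated libraries 1, 2 or 3). Itgam, the CD11b integrin chain of myeloid cells, had 6092, 8036 and 6479.6 normalized counts in the untreated libraries and 5843, 5099 and 7132 in the lymphodepleted libraries, and the 2 groups overlapped (log2 difference -0.19 ± 0.14, limma adjusted p = 0.374). Ccr2, the chemokine receptor that brings classical monocytes out of the marrow, had 5288, 5623 and 5477 normalized counts in the untreated libraries and 7506, 6089 and 5717 in the lymphodepleted libraries. Ccr2 was high in all 6 libraries, and did not pass the test (0.23 ± 0.21, adjusted p = 0.492). Arg1 and Nos2, the arginine-consuming enzymes often used to describe MDSCs, did not pass the filter. Ly6g, sought as a marker of PMN-MDSCs, had no entry under that symbol in the deposited table and could not be examined.

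Lymphodepletion changed 2068 of the 11054 genes (18.7%) by limma at an adjusted p under 0.05, with 1077 higher (9.74%) and 991 lower (8.97%). The rises were larger than the falls. Among called genes the median log2 difference was 1.50 for the higher and -0.78 for the lower, and the median over all genes tested was -0.07. A difference of at least 2 log2 units was reached by 429 higher and 136 lower genes, and one of at least 4 by 144 higher and 10 lower genes. Leaving out each of the 6 libraries in turn, 647 of the higher and 335 of the lower calls held in every fit. The number called higher was 689 without lymphodepleted library 3. The number called lower was 445 without lymphodepleted library 3, 659 without lymphodepleted library 1, and 512, 533 and 458 without untreated libraries 1, 2 and 3. With edgeR on the recovered reads, 1173 genes were called higher and 722 lower. In 4332 genes (39.2%) the 3 lymphodepleted libraries did not overlap the 3 untreated ones, 1890 of them higher (17.1%) and 2442 lower (22.1%). Counts of list members in later paragraphs stand beside the 9.74% called higher and 8.97% called lower over all genes. Below, a gene "rose", "fell" or "changed" only if it passed the limma test, and differences are on the log2(normalized count + 1) scale with their standard errors, which understates the change of genes with few reads.

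**Figure D1:**
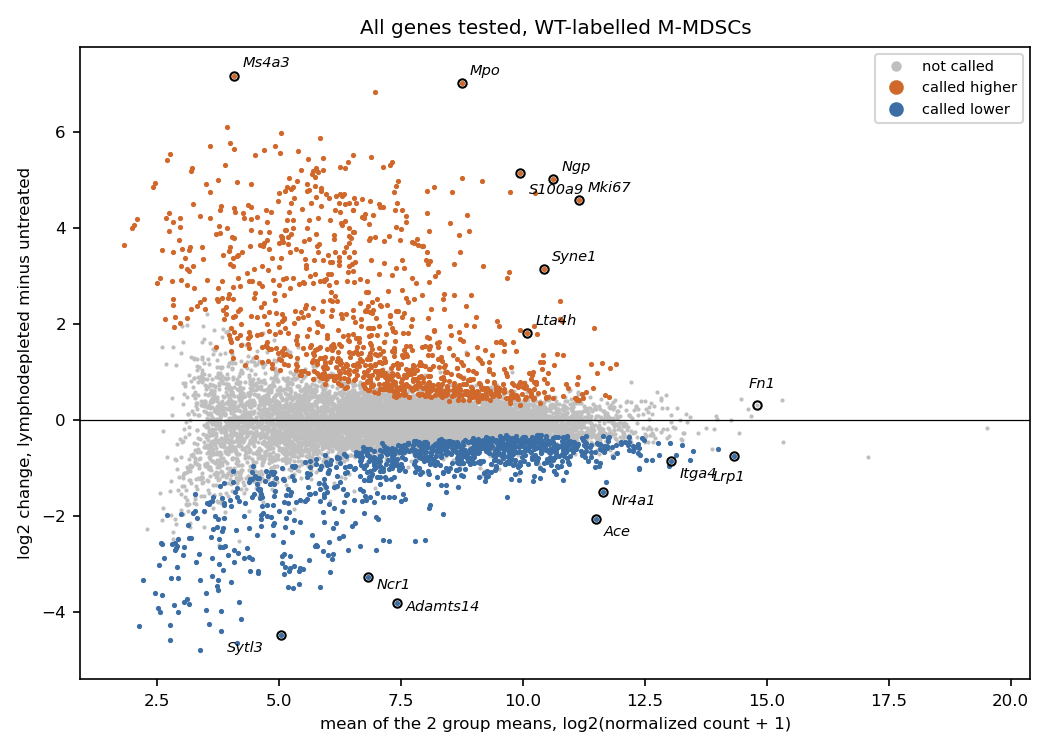
Each point is 1 of the 11054 genes tested. The horizontal axis is the mean of the 2 group means in log2(normalized count + 1), and the vertical axis is the log2 change, lymphodepleted minus untreated. Orange marks the 1077 genes called higher, blue the 991 called lower and grey the rest. Rises above 4 log2 units occur from low to high levels. Most calls in either colour lie within 4 units of 0.

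Genes of chromosome segregation rose. The 50 tested genes of the mitosis and spindle list were all called higher, by 1.46 to 5.86 log2 units with a median of 4.52, against the 9.74% of all genes that rose. Of the 50, 7 passed the filter through the lymphodepleted libraries only and so had to differ, as did 6 of the 51 tested core histone genes, 3 of the 14 primary granule genes, 3 of the 20 later granule genes, 2 of the 36 crosslink repair genes and 1 of the 38 replication genes described below. Together they took 0.0477, 0.0462 and 0.0442% of all normalized counts in the untreated libraries and 0.694, 0.558 and 0.844% in the lymphodepleted libraries, a 15.2-fold rise of the mean. In bulk RNA, more cells of a type and more RNA per cell cannot be told apart, here and in every result that follows. Mki67, the nuclear protein used as a marker of cycling cells, had 469, 455 and 479 normalized counts in the untreated libraries and 11444, 8177 and 14590.5 in the lymphodepleted libraries. Top2a, the topoisomerase that untangles sister chromatids, had 174, 188 and 137 normalized counts in the untreated libraries and 4226, 3891 and 5239 in the lymphodepleted libraries. Both rose, by 4.57 ± 0.60 (adjusted p = 0.000223) and 4.74 ± 0.55 (adjusted p = 0.000159), and every lymphodepleted library lay more than 10-fold above every untreated one. Nuf2 and Ndc80, partners in the complex that ties kinetochores to microtubules, rose by 5.86 ± 0.67 and 3.92 ± 0.43. For Nuf2 the values were 8.64, 8.33 and 3.77 normalized counts in the untreated libraries and 473, 315 and 565 in the lymphodepleted libraries. Tpx2, which nucleates spindle microtubules, rose by 5.36 ± 0.59, the spindle proteins Nusap1 and Hmmr by 5.21 ± 0.52 and 5.24 ± 0.56, and the kinetochore protein Ska1 by 5.64 ± 0.83. Kif14, a kinesin of cytokinesis, rose by 5.48 ± 0.70 and Pbk, a mitotic kinase, by 5.51 ± 0.70. Lymphodepleted library 3 was the highest and library 2 the lowest in the summed share of the list, and the untreated libraries differed little from each other.

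The regulators that start and order the cycle moved less evenly. Of 28 tested genes listed for the passage from G1 to S phase, 14 rose and 3 fell, with a median of 0.73. The 14 include Foxm1, which belongs to a later step. Leaving out 1 library changed the number that fell to 1 without lymphodepleted library 3 or untreated libraries 2 or 3. Foxm1, the transcription factor of the G2 and M programme, had 34.5, 34.1 and 24.5 normalized counts in the untreated libraries and 728, 755 and 1091 in the lymphodepleted libraries and rose by 4.73 ± 0.61. The cyclin E genes Ccne1 and Ccne2, which act with Cdk2 at the start of replication, rose by 3.71 ± 0.60 and 3.38 ± 0.64. The repressive E2F members E2f7 and E2f8 rose by 4.46 ± 0.69 and 3.24 ± 0.47, and the activator E2f1 by 1.44 ± 0.32. Ccnd2, a D-type cyclin that answers growth factors, went the other way. Its values were 269, 195 and 216 normalized counts in the untreated libraries and 125, 145 and 75.00 in the lymphodepleted libraries, and it fell by 1.01 ± 0.23 (adjusted p = 0.00784), and the groups did not overlap. Ccnd3, the other D cyclin of blood cells, did not pass the test, with 1418, 1289.8 and 1282 normalized counts in the untreated libraries and 1699, 1249 and 1674 in the lymphodepleted libraries (0.20 ± 0.15, adjusted p = 0.368). Among inhibitors of cyclin kinases, Cdkn2c rose by 2.95 ± 0.36 while Cdkn1b (p27), a brake of resting cells, fell by 0.57 ± 0.15 (adjusted p = 0.0190, but 0.0936 without lymphodepleted library 3, with the call also lost without untreated libraries 2 or 3).

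DNA replication genes rose almost as a whole: 37 of 38 tested, none lower, with a median of 1.99. They took 0.0513, 0.0479 and 0.0469% of all normalized counts in the untreated libraries and 0.233, 0.184 and 0.260% in the lymphodepleted libraries, a 4.63-fold rise of the mean. Among those that load the helicase, Orc1 of the origin recognition complex had 2.36, 0.833 and 5.66 normalized counts in the untreated libraries and 49.9, 47.97 and 49.1 in the lymphodepleted libraries and rose by 3.86 ± 0.56. Mcm5, a subunit of the helicase itself, had 114, 117 and 82.1 normalized counts in the untreated libraries and 865, 604 and 1103 in the lymphodepleted libraries and rose by 3.00 ± 0.35. At the fork, the leading strand polymerase Pole rose by 3.81 ± 0.43, the ligase Lig1, which seals lagging strand fragments, by 3.30 ± 0.40, and Chaf1a, which puts histones onto new DNA, by 4.01 ± 0.49. The ubiquitin ligase adaptor Dtl rose by 3.76 ± 0.60. Gins4 was the member that did not pass, with 155, 162 and 200.0 normalized counts in the untreated libraries and 179.7, 179 and 172 in the lymphodepleted libraries, and its groups overlapped.

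Enzymes that make deoxynucleotides rose with them. Of 22 genes of nucleotide synthesis, 14 rose and none fell (median 0.98), a count that was 9 without untreated library 2. Both subunits of ribonucleotide reductase, the enzyme that fludarabine's active form inhibits, rose. Rrm1 had 100.5, 59.1 and 89.6 normalized counts in the untreated libraries and 905, 637 and 955 in the lymphodepleted libraries, and Rrm2 had 27.5, 52.5 and 15.1 normalized counts in the untreated libraries and 697, 441 and 790.5 in the lymphodepleted libraries. Their log2 differences were 3.32 ± 0.37 and 4.43 ± 0.61. Thymidylate synthase (Tyms) rose by 3.52 ± 0.50 and CTP synthase (Ctps) by 1.55 ± 0.27. Dck, the kinase that activates fludarabine, had 554, 517 and 481 normalized counts in the untreated libraries and 574, 552 and 606 in the lymphodepleted libraries, with overlapping groups (0.16 ± 0.14, adjusted p = 0.449).

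All 51 tested histone genes, mostly of the replication-dependent cluster on mouse chromosome 13, rose by 0.98 to 5.59 (median 3.50). Single members are uncertain, since these genes have near-identical copies and the sources used here do not say how reads with several matches were counted. Their share was 0.124, 0.120 and 0.108% of all normalized counts in the untreated libraries and 0.738, 0.394 and 0.567% in the lymphodepleted libraries. Hist1h4h, a histone H4 gene at chr13:23531044-23531478, had 43.96, 41.6 and 34.9 normalized counts in the untreated libraries and 597, 378 and 861 in the lymphodepleted libraries and rose by 3.82 ± 0.34. Hist2h2bb, an H2B gene of the second cluster at chr3:96269700-96270192, had 145, 105 and 115 normalized counts in the untreated libraries and 1755, 1595 and 2286 in the lymphodepleted libraries and rose by 3.93 ± 0.36. The linker histones Hist1h1c and Hist1h1e, which were already high in untreated cells, rose less, by 1.08 ± 0.22 and 0.98 ± 0.17.

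Repair of crosslinks between DNA strands, the lesion made by cyclophosphamide, uses the Fanconi anaemia and homologous recombination genes, many of which are also expressed in S phase. Of 36 tested, 24 rose and none fell (median 1.50). Fancd2, the protein that is ubiquitinated at crosslinks, had 7.07, 11.7 and 14.2 normalized counts in the untreated libraries and 183, 152 and 310.3 in the lymphodepleted libraries and rose by 4.16 ± 0.57. The translesion polymerase Polh rose by 2.21 ± 0.23. Rev3l, the catalytic subunit of another translesion polymerase, had 517, 456 and 538 normalized counts in the untreated libraries and 564, 525 and 503 in the lymphodepleted libraries, and Atm, the kinase that senses double strand breaks, had 532, 459.6 and 583 normalized counts in the untreated libraries and 503, 451 and 397 in the lymphodepleted libraries. Neither passed the test, at 0.08 ± 0.11 and -0.22 ± 0.13, and in both the groups overlapped.

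Targets of p53, the transcription factor activated by DNA damage, did not move with the repair genes. Of 17 tested, none rose and 1 fell, with a median of -0.36. The one was Trp53inp1, with 396, 465 and 409.5 normalized counts in the untreated libraries and 322, 299 and 278 in the lymphodepleted libraries (-0.50 ± 0.16, adjusted p = 0.0449, but 0.150 without untreated library 2, with the call also lost without lymphodepleted libraries 1, 2 or 3 or untreated libraries 1 or 3). Cdkn1a (p21), which halts the cycle, had a difference of -0.27 ± 0.21 and Mdm2, which degrades p53, one of -0.36 ± 0.14, both short of the test. Btg2, an antiproliferative gene, had 2004, 1848 and 2082 normalized counts in the untreated libraries and 1535, 1596 and 1108 in the lymphodepleted libraries (-0.50 ± 0.20, adjusted p = 0.0922), with each lymphodepleted library below each untreated one, as in 22.1% of all genes tested. Of 15 BCL2 family genes 1 fell. The survival gene Bcl2 had 332, 369.7 and 316 normalized counts in the untreated libraries and 123, 138 and 73.3 in the lymphodepleted libraries and fell by 1.64 ± 0.22 (adjusted p = 0.000228), a call kept without any single library. Without lymphodepleted library 1, 2 or 3, 2 members fell. Mcl1, the survival factor on which myeloid cells rely, had 7472, 7241 and 7217 normalized counts in the untreated libraries and 6364, 6322 and 4965 in the lymphodepleted libraries (-0.32 ± 0.16, adjusted p = 0.188). Of 22 genes listed for the handling of drugs and nucleosides, not all of which act on the 2 drugs given, 1 rose and 3 fell. The number that rose was 0 without lymphodepleted libraries 1 or 3 or untreated library 2 and 3 without lymphodepleted library 2. Over all genes, 9.74% rose and 8.97% fell. The efflux pump gene Abcb1a had 90.3, 86.6 and 91.5 normalized counts in the untreated libraries and 39.4, 34.04 and 20.7 in the lymphodepleted libraries and fell by 1.53 ± 0.34. Abcc5, a nucleotide exporter, had 1738, 1635 and 1715 normalized counts in the untreated libraries and 979, 1086 and 1099 in the lymphodepleted libraries and fell by 0.69 ± 0.13. Adenosine deaminase (Ada) rose by 1.84 ± 0.49 (adjusted p = 0.0195, but 0.0941 without lymphodepleted library 3, with the call also lost without lymphodepleted library 1 or untreated library 2), and Samhd1, which breaks down deoxynucleotides, fell by 0.64 ± 0.20 (adjusted p = 0.0397, but 0.170 without lymphodepleted library 3, with the call also lost without lymphodepleted library 1 or untreated libraries 1, 2 or 3).

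Chromatin and nuclear envelope genes also moved. Of 20 genes of DNA methylation, Polycomb and chromatin proteins, 12 rose and 3 fell (median 0.94), and the number that fell was 1 without lymphodepleted library 3 or untreated libraries 1 or 3. Uhrf1, which brings the maintenance methyltransferase to new DNA, had 48.7, 49.1 and 39.6 normalized counts in the untreated libraries and 841, 596 and 1068 in the lymphodepleted libraries and rose by 4.12 ± 0.56. That enzyme, Dnmt1, rose by 1.36 ± 0.24, and Ezh2, the Polycomb methyltransferase, by 1.64 ± 0.27. Cbx5, a heterochromatin protein, rose by 2.14 ± 0.30 and the high mobility group genes Hmgb2 and Hmgb3 by 1.91 ± 0.26 and 3.23 ± 0.39. Cbx7, a Polycomb reader of resting stem cells, fell by 1.60 ± 0.29. Of 10 nuclear envelope genes, 7 rose and none fell (median 1.09). The B-type lamins Lmnb1 and Lmnb2 rose by 2.47 ± 0.34 and 2.85 ± 0.40, and the LINC proteins Sun2 and Syne1, which join the envelope to the cytoskeleton, by 1.37 ± 0.23 and 3.13 ± 0.42. Syne1 had 535, 381 and 493 normalized counts in the untreated libraries and 4331, 2565 and 6181 in the lymphodepleted libraries. Lmna, the A-type lamin of stiff nuclei, had 523, 209.8 and 235 normalized counts in the untreated libraries and 241, 323 and 130.2 in the lymphodepleted libraries, with overlapping groups (-0.45 ± 0.47).

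**Figure D2:**
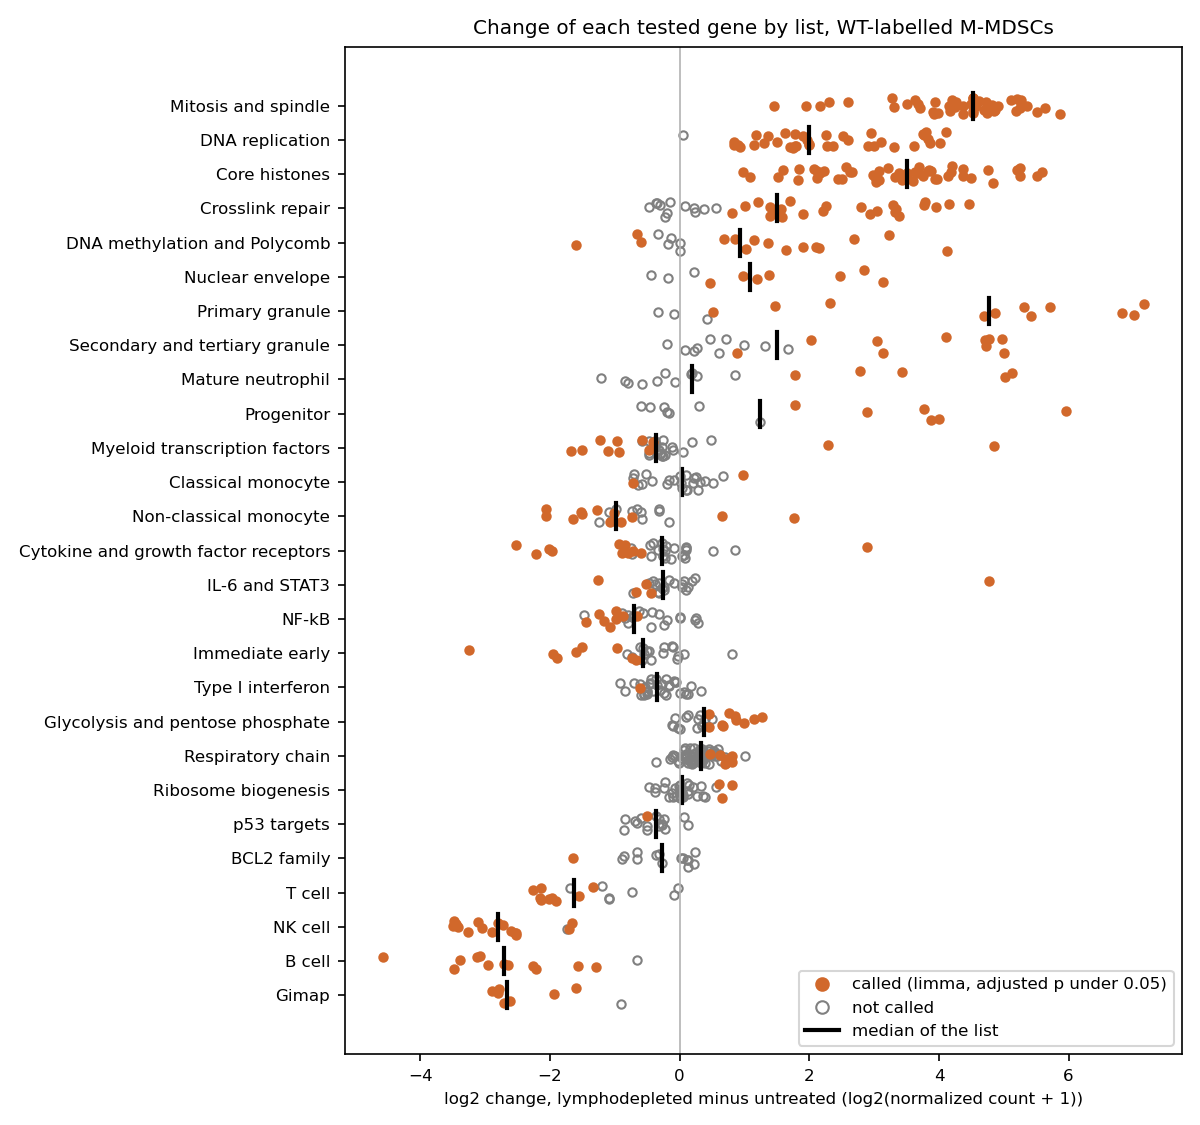
Each point is 1 tested gene, placed by its log2 change (horizontal axis, lymphodepleted minus untreated) in the row of its list. Filled points were called, open points were not, and the black bar is the median of the list. Mitosis, histone and replication genes lie to the right of 0, primary granule genes reach beyond 7, and B, NK, T cell and Gimap genes lie to the left.

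Promoters of the genes that moved together were searched for short words, as a description only. The windows run from 250 bases before to 50 after the start of a gene in RefSeq for GRCm38.p6, 1 per gene, and 8854 of the 11054 genes had one. The words were CCAAT (the NF-Y box), TTTGAA (the core of the cell cycle homology region, CHR), TTTCGCGC or TTTGGCGC (strict E2F words) and GGAAGT (an ETS and PU.1 core). Both strands were searched, and a palindromic overlap such as CCAATTGG was counted on each strand. TTTGAA was found in 32 of 40 mitosis promoters (80.0%) and in 12.3% of all tested genes' promoters. At least 2 CCAAT together with TTTGAA occurred in 18 of the 40 (45.0%) and in 2.22% of all. That combination was also in 20 of 47 histone promoters (42.6%), and in 2 of 30 replication promoters (6.67%). The E2F words occurred in 11 of 30 replication promoters (36.7%) and in 1.86% of all, and at least 2 CCAAT in 34 of 47 histone promoters (72.3%) and 16.05% of all. A match is not a binding site, and no binding was measured. The next 3 are mitosis promoters that hold at least 2 CCAAT and TTTGAA, with both words in capitals wherever they occur on either strand. They belong to Hmmr (chr11:40733388-40733687, minus strand), the ubiquitin enzyme Ube2c (chr2:164769679-164769978, plus strand) and the kinesin Kif18b (chr11:102925075-102925374, minus strand).
Hmmr: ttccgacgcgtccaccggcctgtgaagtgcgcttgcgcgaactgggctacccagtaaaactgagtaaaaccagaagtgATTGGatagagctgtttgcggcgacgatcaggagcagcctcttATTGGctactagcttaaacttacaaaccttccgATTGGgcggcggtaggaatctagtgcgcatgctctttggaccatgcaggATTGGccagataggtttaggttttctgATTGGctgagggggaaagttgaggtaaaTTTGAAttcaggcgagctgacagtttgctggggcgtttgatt
Ube2c: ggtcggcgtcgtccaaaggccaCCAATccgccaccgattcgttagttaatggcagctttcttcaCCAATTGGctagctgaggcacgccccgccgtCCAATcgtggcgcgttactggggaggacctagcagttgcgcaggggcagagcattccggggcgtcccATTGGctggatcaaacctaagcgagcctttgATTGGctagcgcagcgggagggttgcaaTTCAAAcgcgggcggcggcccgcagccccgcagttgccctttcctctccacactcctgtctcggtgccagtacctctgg
Kif18b: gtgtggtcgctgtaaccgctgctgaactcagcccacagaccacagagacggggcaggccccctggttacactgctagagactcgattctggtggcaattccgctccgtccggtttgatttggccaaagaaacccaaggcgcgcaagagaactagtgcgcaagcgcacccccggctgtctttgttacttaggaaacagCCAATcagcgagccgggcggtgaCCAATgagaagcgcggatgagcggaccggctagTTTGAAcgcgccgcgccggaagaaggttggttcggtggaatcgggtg
In all 3 windows the TTTGAA or its reverse complement lies near the 3′ end of the window, close to the start of the gene, and the CCAAT words lie before it. Ube2c rose by 4.86 ± 0.74 and Kif18b by 4.82 ± 0.62. The next 2 are the replication promoters of Orc1 (chr4:108579204-108579503, plus strand) and Dtl (chr1:191575495-191575794, minus strand), with the E2F word in capitals on either strand.
Orc1: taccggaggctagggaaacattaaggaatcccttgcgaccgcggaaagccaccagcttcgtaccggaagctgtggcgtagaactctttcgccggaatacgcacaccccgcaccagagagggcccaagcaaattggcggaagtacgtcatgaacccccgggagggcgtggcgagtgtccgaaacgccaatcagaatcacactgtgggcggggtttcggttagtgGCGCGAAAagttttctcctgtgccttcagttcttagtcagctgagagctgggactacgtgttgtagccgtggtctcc
Dtl: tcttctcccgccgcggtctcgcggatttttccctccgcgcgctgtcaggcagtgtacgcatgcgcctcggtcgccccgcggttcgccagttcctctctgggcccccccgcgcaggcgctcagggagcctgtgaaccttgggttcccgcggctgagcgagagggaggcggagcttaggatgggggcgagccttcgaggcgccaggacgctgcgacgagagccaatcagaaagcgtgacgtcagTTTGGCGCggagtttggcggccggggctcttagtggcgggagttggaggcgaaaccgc
In both windows the E2F word lies nearer the 3′ end than the 5′ end.

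Primary granule genes were among the most increased of all genes. Of 14 tested primary granule genes 11 rose and none fell, with a median of 4.77. Mpo, the myeloperoxidase gene at chr11:87793784-87804412, had 21.2, 48.3 and 49.1 normalized counts in the untreated libraries and 10398, 2580.3 and 4296 in the lymphodepleted libraries and rose by 7.00 ± 0.95 (adjusted p = 0.00026). Elane, neutrophil elastase, had 1.57, 23.3 and 25.5 normalized counts in the untreated libraries and 2551, 674 and 1398 in the lymphodepleted libraries and rose by 6.82 ± 1.02 (adjusted p = 0.000469). Ctsg, the cathepsin G gene, had 7.85, 3.33 and 9.44 normalized counts in the untreated libraries and 451, 232 and 297 in the lymphodepleted libraries and rose by 5.42 ± 0.89. Ms4a3, a membrane protein of granulocyte and monocyte progenitors, had 0, 0 and 1.89 normalized counts in the untreated libraries and 271, 121 and 254 in the lymphodepleted libraries. Its fitted difference of 7.16 ± 0.83 was the largest of all genes tested, but rests on at most 2 reads in an untreated library and so depends on the added 1. In all 4 genes, lymphodepleted library 2 was the lowest of its group, yet above every untreated library. Cd63, a granule membrane protein, rose by 4.69 ± 0.63. Ctsc, the protease that activates the granule enzymes, had 1999, 1788 and 1866 normalized counts in the untreated libraries and 2645, 2405 and 2495 in the lymphodepleted libraries and did not pass (0.42 ± 0.22, adjusted p = 0.202). Among primary granule promoters, 10 of 12 held GGAAGT (83.3%), as did 31.1% of all. Those of Ms4a3 (chr19:11640802-11641101, minus strand) and Mpo (chr11:87793534-87793833, plus strand) are shown with that word, or its reverse complement ACTTCC, in capitals.
Ms4a3: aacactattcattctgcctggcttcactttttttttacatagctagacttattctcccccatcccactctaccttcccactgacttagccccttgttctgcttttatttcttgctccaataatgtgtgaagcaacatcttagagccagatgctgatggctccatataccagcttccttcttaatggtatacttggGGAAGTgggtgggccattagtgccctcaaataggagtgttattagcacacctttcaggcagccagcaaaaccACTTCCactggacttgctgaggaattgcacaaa
Mpo: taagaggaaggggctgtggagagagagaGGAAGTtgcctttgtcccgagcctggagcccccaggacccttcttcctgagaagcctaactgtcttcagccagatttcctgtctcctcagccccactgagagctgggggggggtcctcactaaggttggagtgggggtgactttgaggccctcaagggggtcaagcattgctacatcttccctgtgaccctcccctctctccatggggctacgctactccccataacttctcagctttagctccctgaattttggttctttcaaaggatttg
The Ms4a3 window holds the word on each strand and the Mpo window holds it once, near its 5′ end.

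Of 20 tested genes of the later granules 10 rose, with none lower and a median of 1.49. Syne1, described above with the nuclear envelope, is among the 10 and is counted in both lists. It does not encode a granule protein, and its counts are part of the summed share below. Ngp, the neutrophilic granule protein gene, had 212, 308 and 326 normalized counts in the untreated libraries and 14996, 2959 and 16183 in the lymphodepleted libraries and rose by 5.01 ± 0.64, the largest gain in mean level among the genes called. Ltf, lactoferrin, had 281, 243 and 195 normalized counts in the untreated libraries and 10672, 2184 and 10806 in the lymphodepleted libraries and rose by 4.73 ± 0.63. Camp, the cathelicidin gene, had 85.6, 129.9 and 92.5 normalized counts in the untreated libraries and 4363, 1233 and 6134 in the lymphodepleted libraries and rose by 4.98 ± 0.63. Lcn2, an iron-scavenging granule protein and a STAT3 target, had 43.2, 50.8 and 53.8 normalized counts in the untreated libraries and 3086, 357 and 2304 in the lymphodepleted libraries and rose by 4.77 ± 0.69. Lymphodepleted libraries 1 and 3 were several-fold above library 2 in each of these. The summed share of the list was 0.416, 0.559 and 0.463% of all normalized counts in the untreated libraries and 1.43, 0.553 and 1.16% in the lymphodepleted libraries, so library 2 lay inside the untreated range for the sum. 

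Markers of mature neutrophils split. Of 16 tested, 5 rose and none fell (median 0.18). The alarmin pair S100a8 and S100a9, neighbours on chromosome 3, rose by 5.02 ± 0.60 and 5.13 ± 0.64. S100a9 had 115, 239 and 167 normalized counts in the untreated libraries and 13758, 1849.9 and 7897 in the lymphodepleted libraries. Cxcr2, the receptor that draws mature neutrophils from the marrow, stayed low, with 14.1, 4.996 and 2.83 normalized counts in the untreated libraries and 33.3, 58.03 and 55.2 in the lymphodepleted libraries, and rose by 2.78 ± 0.64. Csf3r, the G-CSF receptor, had 2884, 2599 and 3004 normalized counts in the untreated libraries and 2247, 2617 and 2375 in the lymphodepleted libraries and did not pass (-0.23 ± 0.15, adjusted p = 0.322). The share of the list was 0.0733, 0.0821 and 0.0824% of all normalized counts in the untreated libraries and 0.387, 0.114 and 0.229% in the lymphodepleted libraries. Whether the granule reads came from M-MDSCs, from neutrophil precursors or from other progenitors in the sorted cells was not tested.

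Cebpe and Gfi1, 2 transcription factors of the granule stage, rose. Cebpe, which drives secondary granule genes, had 1.57, 16.7 and 5.66 normalized counts in the untreated libraries and 249, 95.2 and 299 in the lymphodepleted libraries and rose by 4.85 ± 0.64. Gfi1, a repressor needed for neutrophil fate, had 26.7, 48.3 and 20.8 normalized counts in the untreated libraries and 179.7, 101 and 189.6 in the lymphodepleted libraries and rose by 2.29 ± 0.41. Irf8, which drives monocyte fate, had 1724, 2592 and 1751 normalized counts in the untreated libraries and 1713, 1626 and 1595 in the lymphodepleted libraries, below in the mean but short of the test (-0.27 ± 0.15, adjusted p = 0.215). Of 13 tested progenitor genes 6 rose and none fell (median 1.23), but 3 of these, Erg, Hlf and Prom1, passed the filter through the lymphodepleted libraries only and so had to differ. The other 10 of the 23 members did not pass it. Myb, a factor of dividing progenitors, had 61.2, 69.9 and 51.9 normalized counts in the untreated libraries and 885, 749.7 and 881 in the lymphodepleted libraries and rose by 3.76 ± 0.55. Prom1 (CD133), a stem cell surface marker, had 0, 9.99 and 5.66 normalized counts in the untreated libraries and 276, 156 and 405 in the lymphodepleted libraries and rose by 5.96 ± 1.02. Kit, the stem cell factor receptor, had 30.6, 14.99 and 17.9 normalized counts in the untreated libraries and 263, 92.1 and 159 in the lymphodepleted libraries and rose by 2.89 ± 0.46. Hlf, a transcription factor of stem cells, had no read in the untreated libraries and 16.6, 15.5 and 12.9 normalized counts in the lymphodepleted ones. Lmo2 and Cd93, which are also expressed outside the stem cell compartment, did not pass, at 0.29 ± 0.12 and -0.24 ± 0.17.

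**Figure D3:**
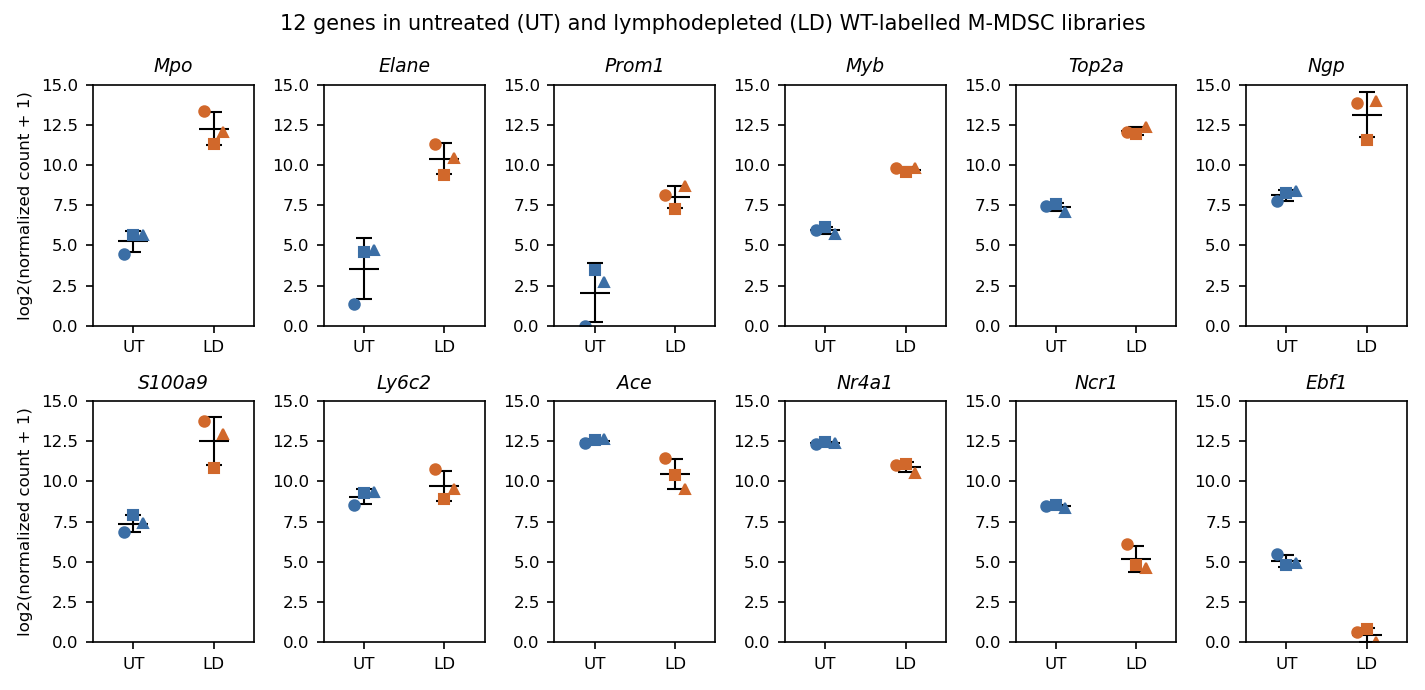
Levels of 12 genes in log2(normalized count + 1), with untreated libraries (UT) in blue and lymphodepleted libraries (LD) in orange. Circle, square and triangle are libraries 1, 2 and 3, and the bars are the mean and SD of the 3 values. The groups are apart for the granule, progenitor and dividing cell genes and for Ace, Nr4a1, Ncr1 and Ebf1, and they overlap for Ly6c2.

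Genes of classical monocytes changed little. Of 25 tested, 1 rose and 1 fell, with a median of 0.04, near that of all genes. The higher count was 0 without lymphodepleted library 3 or untreated libraries 1 or 3, and the lower count was 0 without lymphodepleted libraries 1, 2 or 3 or untreated libraries 1, 2 or 3. Ly6c2, the Ly6C antigen gene, had 366, 633 and 644 normalized counts in the untreated libraries and 1723, 470.4 and 738 in the lymphodepleted libraries (0.67 ± 0.44, adjusted p = 0.310), with library 1 the highest and library 2 inside the untreated range. Fn1, fibronectin, had 20223, 31663 and 25666 normalized counts in the untreated libraries and 34842, 26442 and 34719 in the lymphodepleted libraries (0.32 ± 0.22, adjusted p = 0.343). F13a1, a coagulation factor chain made by monocytes, had 6679, 6543 and 6401 normalized counts in the untreated libraries and 9196, 8825 and 10182 in the lymphodepleted libraries (0.52 ± 0.21, adjusted p = 0.0955), with every lymphodepleted library above every untreated one, as in 17.1% of all genes tested. Csf1r, the receptor for the monocyte growth factor CSF1, had 8461, 9519.5 and 9264 normalized counts in the untreated libraries and 6195, 5647 and 4761 in the lymphodepleted libraries and fell by 0.72 ± 0.22 (adjusted p = 0.0384, but 0.146 without lymphodepleted library 3, with the call also lost without lymphodepleted libraries 1 or 2 or untreated libraries 1, 2 or 3). The inflammatory chemokine receptor Ccr1 rose by 0.97 ± 0.27 (adjusted p = 0.0223, but 0.101 without lymphodepleted library 3, with the call also lost without untreated libraries 1 or 3).

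Genes of non-classical monocytes were lower. Of 23 tested, 10 fell and 2 rose, with a median of -0.98. The number that fell was 1 without lymphodepleted library 3, 2 without untreated library 1, 4 without untreated library 2 and 3 without untreated library 3, and the number that rose was 1 without lymphodepleted libraries 1 or 3 or untreated libraries 1 or 3. Their summed share was 0.883, 0.953 and 0.912% of all normalized counts in the untreated libraries and 0.616, 0.544 and 0.450% in the lymphodepleted libraries, without overlap. Nr4a1, the factor these cells depend on, had 5065, 5647 and 5476 normalized counts in the untreated libraries and 2097, 2214 and 1486 in the lymphodepleted libraries and fell by 1.50 ± 0.32 (adjusted p = 0.00571), a call kept without any single library. Ace, angiotensin converting enzyme, had 5422, 5991 and 6350.3 normalized counts in the untreated libraries and 2774, 1347 and 752 in the lymphodepleted libraries and fell by 2.07 ± 0.49 (adjusted p = 0.00980, but 0.0545 without lymphodepleted library 3). Pou2f2, a factor of the same cells, fell by 0.90 ± 0.23 (adjusted p = 0.0156, but 0.0727 without lymphodepleted library 3, with the call also lost without untreated libraries 1 or 3). Clec12a, an inhibitory lectin, rose by 0.66 ± 0.15, with 460.1, 646 and 574 normalized counts in the untreated libraries and 1001, 727 and 927 in the lymphodepleted libraries. Cx3cr1, the fractalkine receptor, had 1476, 1914 and 1709 normalized counts in the untreated libraries and 1639, 846 and 898 in the lymphodepleted libraries (-0.65 ± 0.32, adjusted p = 0.177). Library 1 lay inside the untreated range there and libraries 2 and 3 below it.

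Other factors of myeloid fate tended to the lower side. Of 31 tested, 2 rose (Cebpe and Gfi1) and 9 fell (median -0.36). That lower count was 5 without lymphodepleted library 1 and 3 without lymphodepleted library 3 or untreated libraries 1, 2 or 3. Klf2, a factor of quiescence, had 2512, 2410.5 and 2075 normalized counts in the untreated libraries and 1381, 1248 and 983 in the lymphodepleted libraries and fell by 0.96 ± 0.19. Bach2, a repressor shared by lymphoid and myeloid progenitors, had 169, 172 and 156 normalized counts in the untreated libraries and 33.3, 61.9 and 65.5 in the lymphodepleted libraries and fell by 1.67 ± 0.24. Bcl6, a repressor of inflammatory genes, fell by 0.94 ± 0.30 (adjusted p = 0.0454, but 0.191 without lymphodepleted library 3, with the call also lost without lymphodepleted library 1 or untreated libraries 1, 2 or 3).

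Lymphocyte genes were present at low levels in the untreated sort, and most of them fell. Of 13 tested B cell genes 12 fell (median -2.71), of 17 NK cell genes 16 (median -2.81) and of 16 T cell genes 9 (median -1.63), with none higher. Of the B cell genes 3 passed the filter through the untreated libraries only and so had to differ. The B cell list took 0.0149, 0.0139 and 0.0128% of all normalized counts in the untreated libraries and 0.00386, 0.00286 and 0.00296% in the lymphodepleted libraries. The NK list took 0.0504, 0.0501 and 0.0430% of all normalized counts in the untreated libraries and 0.0145, 0.00764 and 0.00493% in the lymphodepleted libraries, and the T cell list 0.0186, 0.0138 and 0.0118% of all normalized counts in the untreated libraries and 0.00608, 0.00460 and 0.00345% in the lymphodepleted libraries. Ebf1, the factor that fixes B cell fate, had 43.96, 26.6 and 29.3 normalized counts in the untreated libraries and 0.555, 0.774 and 0 in the lymphodepleted libraries. It was called lower, with at most 1 read in a lymphodepleted library, so its fitted difference depends on the added 1 and is not given. Cr2, a complement receptor of B cells, had 123, 98.3 and 105 normalized counts in the untreated libraries and 24.96, 12.4 and 5.17 in the lymphodepleted libraries and fell by 3.08 ± 0.47. Ncr1, the NKp46 receptor of NK cells, had 351, 378 and 327 normalized counts in the untreated libraries and 69.3, 27.1 and 24.1 in the lymphodepleted libraries and fell by 3.26 ± 0.38. Tbx21 (T-bet), the factor of type 1 lymphocytes, had 205, 229 and 148 normalized counts in the untreated libraries and 32.2, 18.6 and 6.90 in the lymphodepleted libraries and fell by 3.48 ± 0.41. Lck, the kinase of the T cell receptor, had 217, 139.9 and 114 normalized counts in the untreated libraries and 31.1, 38.7 and 31.03 in the lymphodepleted libraries and fell by 2.15 ± 0.34. No lymphodepleted library reached an untreated one in these 5 genes. The B cell receptor gene Cd79b did not pass, with 21.98, 43.3 and 25.5 normalized counts in the untreated libraries and 32.2, 7.74 and 22.4 in the lymphodepleted libraries and overlapping groups. Of 8 Gimap genes, which encode GTPases of lymphocyte survival and lie side by side on chromosome 6, 7 fell (median -2.66), among them Gimap6 with 214, 182 and 151 normalized counts in the untreated libraries and 28.8, 31.7 and 17.2 in the lymphodepleted libraries. Among the 15 largest falls of genes that averaged 100 or more normalized counts untreated were the kinase Txk (-3.50 ± 0.41) and the integrin Itga2 (-3.42 ± 0.36), both already counted in the NK cell list. Others were the exocytosis genes Sytl3 (-4.47 ± 0.81) and Sytl2 (-3.14 ± 0.30), Setbp1 (-3.17 ± 0.29) and the metalloprotease Adamts14 (-3.81 ± 0.35). Adamts14 had 657, 708 and 577 normalized counts in the untreated libraries and 51.03, 66.5 and 26.7 in the lymphodepleted libraries, the highest level of these in untreated cells. Fasl, the death ligand of cytotoxic lymphocytes, had 67.5, 53.3 and 81.1 normalized counts in the untreated libraries and 6.10, 7.74 and 0.862 in the lymphodepleted libraries and fell by 3.79 ± 0.51. It passed the filter through the untreated libraries only and so had to differ. The part of lymphocytes in the falls of other genes was not tested.

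Genes of other spleen cells were followed the same way. Of 18 erythroid genes in the table, 4 were at 0 in all 6 libraries and 5 passed the filter, of which 3 (Ermap, Sptb and Slc4a1) passed through the lymphodepleted libraries only and so had to differ. The 5 were called higher, a count that was 3 without lymphodepleted libraries 2 or 3 or untreated libraries 1, 2 or 3. The anion exchanger Slc4a1 of red cells had 5.50, 1.67 and 3.77 normalized counts in the untreated libraries and 33.8, 185 and 98.3 in the lymphodepleted libraries and rose by 4.31 ± 1.28 (adjusted p = 0.0322, but 0.106 without untreated library 2, with the call also lost without lymphodepleted libraries 2 or 3 or untreated libraries 1 or 3). Tfrc, the transferrin receptor, which dividing cells also need, had 87.1, 67.4 and 61.3 normalized counts in the untreated libraries and 483, 476 and 450.0 in the lymphodepleted libraries and rose by 2.70 ± 0.29. Lymphodepleted library 2, the lowest in granule genes, was the highest in the erythroid share (0.00205, 0.00146 and 0.00141% of all normalized counts in the untreated libraries and 0.0101, 0.0202 and 0.0117% in the lymphodepleted libraries). Of 15 red pulp macrophage genes 4 rose and none fell (1 fell without lymphodepleted library 1 or 2). They were Vcam1, Slc40a1, the iron exporter, C1qc and Actn1, which is not particular to these macrophages. Spic, the factor that defines red pulp macrophages, did not pass (-0.26 ± 0.49). C1qc passed the filter through the lymphodepleted libraries only and so had to differ. Of 15 dendritic cell genes 5 fell and 1 rose, and the 1 that rose passed the filter through the lymphodepleted libraries only and so had to differ. The lower count was 1 without lymphodepleted library 3 or untreated library 3 and 2 without untreated libraries 1 or 2, and the higher count was 2 without untreated library 1. Flt3, which defines that lineage, had 206, 251 and 193 normalized counts in the untreated libraries and 165, 156 and 149 in the lymphodepleted libraries (-0.46 ± 0.22, adjusted p = 0.173). The mast cell chymase Cma1 fell by 3.82 ± 0.66, with 29.05, 39.97 and 30.2 normalized counts in the untreated libraries and 6.66, 0.774 and 0 in the lymphodepleted libraries. The eosinophil granule gene Prg2 was called higher, with 0.785, 1.67 and 1.89 normalized counts in the untreated libraries and 51.03, 50.3 and 34.5 in the lymphodepleted libraries, and its untreated values rest on 1 or 2 reads each. Cma1 passed the filter through the untreated libraries only and Prg2 through the lymphodepleted libraries only, so both had to differ. None of the 5 tested endothelial and stromal genes changed by the test, nor did the 1 melanoma gene that passed the filter. The part of these cells in the results was not tested.

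**Figure D4:**
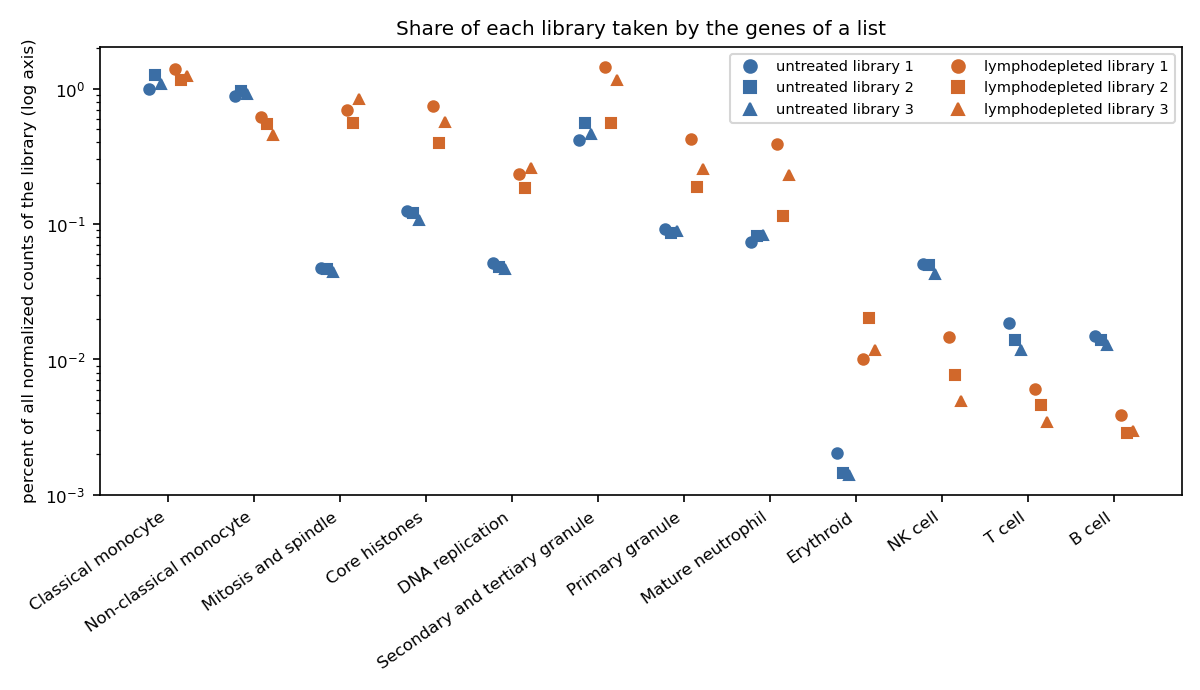
Percent of all normalized counts of a library taken by the genes of a list (log axis), for untreated (blue) and lymphodepleted (orange) libraries 1, 2 and 3. Mitosis, histone and replication genes take more and B, T and NK cell genes less in each lymphodepleted library. In the secondary granule list, whose untreated sum is mostly the uncalled gene Lyz2, lymphodepleted library 2 lies within the untreated range.

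Genes that respond within minutes to signalling were lower. Of 25 immediate early genes 8 fell and none rose (median -0.57). Dusp2, a phosphatase that switches off MAP kinases, had 627, 703 and 623 normalized counts in the untreated libraries and 147, 267 and 117 in the lymphodepleted libraries and fell by 1.96 ± 0.35. Its relative Dusp5 had 276, 312 and 273 normalized counts in the untreated libraries and 85.97, 87.4 and 111 in the lymphodepleted libraries and fell by 1.59 ± 0.22. Nr4a2, kin of Nr4a1, fell by 1.89 ± 0.27, and Nr4a3 fell by 3.25 ± 0.74. Fos, the best known of the class, had 6615, 5237 and 4923 normalized counts in the untreated libraries and 4717, 5106 and 4113 in the lymphodepleted libraries (-0.26 ± 0.22, adjusted p = 0.443), with overlapping groups. Of 27 genes of the NF-kB pathway 8 fell and none rose (median -0.71), a count that was 4 without lymphodepleted library 3 and 5 without untreated library 3. The feedback inhibitors Nfkbia and Tnfaip3 (A20) both fell. Nfkbia had 1380.2, 1455 and 1434 normalized counts in the untreated libraries and 599.6, 838 and 610.3 in the lymphodepleted libraries and fell by 1.08 ± 0.17, and Tnfaip3 had 1329, 1291 and 1377 normalized counts in the untreated libraries and 554, 696 and 465 in the lymphodepleted libraries and fell by 1.24 ± 0.21. Rel, a subunit of the factor, fell by 0.66 ± 0.13.

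Along the IL-6 pathway most genes did not pass the test. Il6ra, the ligand-binding receptor chain, had 2836, 2875 and 3040.2 normalized counts in the untreated libraries and 2132, 2542 and 2271 in the lymphodepleted libraries (-0.34 ± 0.15, adjusted p = 0.133). Stat3, the factor it activates, had 2704, 2600.3 and 2613 normalized counts in the untreated libraries and 2239, 2135 and 1949 in the lymphodepleted libraries (-0.33 ± 0.14, adjusted p = 0.121). Both were lower in every lymphodepleted library than in any untreated one, as were 22.1% of all genes tested. Socs3, the feedback inhibitor of the pathway, had 1116, 881 and 799 normalized counts in the untreated libraries and 362, 528 and 297 in the lymphodepleted libraries and fell by 1.26 ± 0.35 (adjusted p = 0.0224, but 0.0974 without lymphodepleted library 3, with the call also lost without lymphodepleted library 1 or untreated libraries 1 or 2). Of 24 tested genes 4 fell and 1 rose, Lcn2 (median -0.26), and the lower count was 2 without lymphodepleted library 1 or untreated library 3, 0 without lymphodepleted library 3 or untreated library 1 and 1 without untreated library 2. The kinase Tyk2 fell by 0.51 ± 0.13 (adjusted p = 0.0136, but 0.0649 without untreated library 1, with the call also lost without lymphodepleted library 3). Its relative Jak1 fell by 0.44 ± 0.13 (adjusted p = 0.0330, but 0.140 without lymphodepleted library 3, with the call also lost without lymphodepleted library 2 or untreated libraries 1, 2 or 3).

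Receptors for growth factors and cytokines were more often lower. Of 34 tested 10 fell and 1 rose, Kit (median -0.27), and the lower count was 5 without lymphodepleted library 3 and 6 without untreated libraries 1, 2 or 3. Il18r1 of the IL-18 receptor had 261, 276 and 236 normalized counts in the untreated libraries and 82.1, 62.7 and 47.4 in the lymphodepleted libraries and fell by 2.02 ± 0.20. Il27ra fell by 2.22 ± 0.37, and Il2rb, a chain that NK cells express strongly, fell by 2.53 ± 0.40. Il10ra, the receptor chain for the suppressive cytokine IL-10, fell by 0.89 ± 0.21 (adjusted p = 0.00982, but 0.0568 without lymphodepleted library 3). Among 8 chemokine receptors, Cxcr4, which holds cells in the marrow, had 235, 286 and 309 normalized counts in the untreated libraries and 674, 476 and 609 in the lymphodepleted libraries and rose by 1.07 ± 0.21 (adjusted p = 0.00279). Cxcr5 of B cells had 18.8, 27.5 and 18.9 normalized counts in the untreated libraries and 2.22, 0 and 0 in the lymphodepleted libraries and was called lower. It passed the filter through the untreated libraries only and so had to differ. Of 31 adhesion and egress genes 4 rose and 7 fell, beside 9.74% and 8.97% of all genes. The first count was 2 without lymphodepleted library 1 or untreated library 2, and the second was 4 without lymphodepleted library 3 or untreated libraries 1 or 3 and 3 without untreated library 2. Of the 7 that fell, 1 passed the filter through the untreated libraries only and so had to differ. Itga4, the VLA-4 chain that binds Vcam1, had 10017, 12464 and 11750.5 normalized counts in the untreated libraries and 7537, 6227 and 5221 in the lymphodepleted libraries and fell by 0.86 ± 0.19, while Vcam1 had 13.3, 18.3 and 22.6 normalized counts in the untreated libraries and 301, 75.05 and 158 in the lymphodepleted libraries and rose by 3.04 ± 0.52. S1pr5, an egress receptor of NK cells and patrolling monocytes, fell by 1.71 ± 0.37. Itgb2, the common chain of the leukocyte integrins, had 9935, 9706 and 8156 normalized counts in the untreated libraries and 7255, 7154 and 7483 in the lymphodepleted libraries (-0.34 ± 0.15, adjusted p = 0.124).

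Sensors of microbes and interferon-induced genes changed little by the test. Over all genes, 9.74% rose and 8.97% fell. Of 29 Toll-like receptor and adaptor genes 2 fell (Nod1 and Aim2) and none rose, a count that was 1 without lymphodepleted libraries 1 or 3 or untreated libraries 2 or 3. Of 34 genes induced by type I interferon 1 fell, Mndal (adjusted p = 0.0183, but 0.0900 without lymphodepleted library 3, with the call also lost without untreated libraries 2 or 3), and none rose (median -0.36), a count that was 2 without lymphodepleted library 1, 3 without lymphodepleted library 2 and 0 without lymphodepleted library 3 or untreated libraries 2 or 3. The list took 0.392, 0.390 and 0.382% of all normalized counts in the untreated libraries and 0.422, 0.353 and 0.202% in the lymphodepleted libraries, with library 3 well below the other 5. Of 14 genes of MHC class II presentation 2 fell, H2-DMb2 and H2-Ob, which B cells express. Of 28 MHC class I and guanylate binding protein genes 2 fell, a count that was 0 without lymphodepleted libraries 1 or 3 or untreated libraries 1, 2 or 3 and 6 without lymphodepleted library 2.

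Genes used to describe suppression did not move together. Of 22 tested 3 rose and 2 fell (median -0.20), beside 9.74% and 8.97% of all genes. Of the 3, 1 passed the filter through the lymphodepleted libraries only, and of the 2, 1 through the untreated libraries only, so both had to differ. The higher count was 1 without lymphodepleted library 3 or untreated library 3, and the lower count was 1 without lymphodepleted library 3 or untreated libraries 1, 2 or 3. Cd274 (PD-L1), the ligand that inhibits T cells, had 189, 192 and 213 normalized counts in the untreated libraries and 119, 151 and 123 in the lymphodepleted libraries (-0.60 ± 0.31, adjusted p = 0.199), each lymphodepleted library below each untreated one, as in 22.1% of all genes tested. Ptgs2 (COX-2) had 43.2, 102 and 88.7 normalized counts in the untreated libraries and 59.3, 47.2 and 25.9 in the lymphodepleted libraries (-0.79 ± 0.48, adjusted p = 0.275). Tgfb1 had 2305, 2679 and 2499 normalized counts in the untreated libraries and 2089, 1591 and 1592 in the lymphodepleted libraries (-0.51 ± 0.18, adjusted p = 0.0658). Vegfa, the vessel growth factor, rose by 1.71 ± 0.45 (adjusted p = 0.0190, but 0.0924 without lymphodepleted library 3, with the call also lost without untreated libraries 1 or 3), Gpnmb by 2.74 ± 0.64, and Havcr2 (TIM-3) fell by 1.51 ± 0.42 (adjusted p = 0.0231, but 0.109 without lymphodepleted library 3, with the call also lost without untreated libraries 1, 2 or 3). In the oxidase that makes superoxide, Hvcn1, its proton channel, had 64.4, 104 and 72.7 normalized counts in the untreated libraries and 517, 225 and 478 in the lymphodepleted libraries and rose by 2.26 ± 0.33. Ncf1, a cytosolic subunit, rose by 0.89 ± 0.24 (adjusted p = 0.0224, but 0.108 without lymphodepleted library 3, with the call also lost without lymphodepleted library 1 or untreated libraries 1 or 3), and these were the 2 of 8 that rose. That count was 1 without lymphodepleted libraries 1 or 3 or untreated libraries 1 or 3 and 4 without lymphodepleted library 2. Of 21 antioxidant genes 5 rose, among them thioredoxin (Txn1, 1.09 ± 0.24), a count that was 3 without lymphodepleted libraries 1 or 3 or untreated library 3. Of 17 eicosanoid genes 5 rose and none fell, a count that was 3 without lymphodepleted libraries 2 or 3 or untreated library 3. Alox5, Lta4h and Ptgs1, the enzymes that make leukotriene A4, leukotriene B4 and prostaglandin H2, rose by 1.92 ± 0.35, 1.81 ± 0.28 and 2.90 ± 0.61. Lta4h had 616, 593 and 535 normalized counts in the untreated libraries and 2383, 1349 and 2605 in the lymphodepleted libraries. Among phagocytic receptors, Clec5a, an activating lectin, had 137, 132 and 160.4 normalized counts in the untreated libraries and 527, 343 and 589.6 in the lymphodepleted libraries and rose by 1.73 ± 0.27. In the coagulation list, Plau (urokinase) rose by 1.08 ± 0.24 and Thbd (thrombomodulin), an anticoagulant receptor, fell by 0.90 ± 0.17.

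Most metabolic genes did not pass the test. Of 24 genes of glycolysis and the pentose phosphate pathway 10 rose and none fell (median 0.37), a count that was 6 without lymphodepleted library 1 or untreated libraries 2 or 3 and 5 without lymphodepleted library 3. Gapdh had 857, 903 and 793 normalized counts in the untreated libraries and 1805, 1269 and 1609 in the lymphodepleted libraries and rose by 0.86 ± 0.17. Rpia, which makes ribose for nucleotides, rose by 1.14 ± 0.18. Of 71 nuclear genes of the respiratory chain 7 rose (median 0.32), close to the 9.74% of all genes, a count that was 3 without lymphodepleted library 1 or untreated libraries 1 or 2, 14 without lymphodepleted library 2, 2 without lymphodepleted library 3 and 1 without untreated library 3. Serine and glycine synthesis rose in Psat1 (1.71 ± 0.31) and Shmt2 (1.59 ± 0.23), while Ppp1r15a, induced by the integrated stress response, fell by 0.85 ± 0.17. In that list of the unfolded protein and amino acid response, 7 of 26 rose and 1 fell, and the higher count was 2 without lymphodepleted library 3 or untreated library 3 and 3 without untreated library 2. In lipid synthesis 6 of 30 rose and 1 fell. The 2 stearoyl-CoA desaturases went opposite ways. Scd2 had 328, 229 and 319 normalized counts in the untreated libraries and 613, 839 and 828 in the lymphodepleted libraries and rose by 1.38 ± 0.18, and Scd1 had 104, 74.9 and 87.8 normalized counts in the untreated libraries and 12.8, 5.42 and 21.6 in the lymphodepleted libraries and fell by 2.82 ± 0.51. Of 11 haem synthesis genes 3 rose, led by Alas1, the first enzyme of the pathway outside red cells (1.52 ± 0.25), a count that was 1 without lymphodepleted library 3 or untreated library 1. Of 30 ribosome biogenesis genes 3 rose, a count that was 1 without lymphodepleted libraries 2 or 3 or untreated libraries 1, 2 or 3, and of 25 lysosomal genes 1 rose, a count that was 0 without lymphodepleted libraries 1 or 3 or untreated libraries 1 or 3. The first share is near and the second below the 9.74% of all genes that rose.

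The response was set beside those of 2 other pairs of groups. In KO-labelled M-MDSCs lymphodepletion changed 11.6% of the 11054 genes, 700 higher (6.33%) and 585 lower (5.29%). In WT-labelled PMN-MDSCs it changed 27.4%, 1223 higher (11.1%) and 1806 lower (16.3%). The PMN-MDSC response came from a fit on all 24 libraries and both M-MDSC responses from the fit on the 12 M-MDSC libraries. On all 24 libraries, 814 genes were called in WT-labelled M-MDSCs, 575 higher and 239 lower. The percentages of the 2 cell types are therefore not on the same footing. The median of the mitosis list was 4.52 in WT-labelled M-MDSCs, 2.90 in KO-labelled M-MDSCs and 3.00 in WT-labelled PMN-MDSCs. For the primary granule list the 3 medians were 4.77, 2.51 and 2.12, and for the NK list -2.81, -3.09 and -1.30. Whether the lists differ between the comparisons was not tested.

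The difference between the 2 genotype labels was tested gene by gene. Of 11054 genes, 1 passed (0.00905%), Nedd4, a ubiquitin ligase, and 1368 had an unadjusted p under 0.05. edgeR called 2 genes and DESeq2 72. In WT-labelled M-MDSCs Nedd4 had 118, 84.9 and 116 normalized counts in the untreated libraries and 443, 364 and 429 in the lymphodepleted libraries and rose by 1.96 ± 0.20, and in KO-labelled M-MDSCs it had 365, 356 and 464 untreated and 257, 442 and 336 lymphodepleted (interaction -2.17 ± 0.29, adjusted p = 0.0316). The untreated WT-labelled libraries stood apart from the other 9. The call held in 2 of the 12 fits without 1 library, those without lymphodepleted library 2 of either label, and the adjusted p reached 0.150 without WT-labelled lymphodepleted library 3. KO-labelled untreated library 3 stood apart in the genes of dividing and granule cells. Mpo had 946, 129 and 5297 in the KO-labelled untreated and 3471, 5009 and 9604 in the KO-labelled lymphodepleted libraries, so those groups overlapped, and the interaction of -4.33 ± 1.35 did not pass (adjusted p = 0.326). Top2a had 453, 196 and 1815 and 2825, 6132 and 4195 there (interaction -1.80 ± 0.78, adjusted p = 0.384). Leaving out 1 library, the interaction called 7 genes without WT-labelled lymphodepleted library 2, 1 gene without KO-labelled lymphodepleted library 2 and no gene in the other 10 fits.

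Between cell types of the WT label, the response differed in 102 genes (0.923%), 27 more positive in PMN-MDSCs (0.244%) and 75 less (0.678%). The number called was 41 and 28 without lymphodepleted M-MDSC libraries 1 and 3, 45, 43 and 32 without untreated M-MDSC libraries 1, 2 and 3, 45 and 30 without untreated PMN-MDSC libraries 1 and 2, and 246 and 179 without lymphodepleted PMN-MDSC libraries 1 and 2. S100a9 had 18896, 17688 and 18548 in untreated and 24618, 17599 and 85318 in lymphodepleted PMN-MDSCs, far above its level in untreated M-MDSCs, and its response differed by -4.27 ± 0.86 (adjusted p = 0.0171, a call lost without lymphodepleted M-MDSC libraries 1 or 3 or untreated M-MDSC libraries 1 or 3 or untreated PMN-MDSC library 2, with adjusted p up to 0.0645, and lost with edgeR at an adjusted p of 0.0505). Cxcr2 had 7140.5, 5282 and 4568 and 2684, 3456 and 2038 there and a difference of -3.85 ± 0.69 (adjusted p = 0.00935). Of 16 mature neutrophil genes 6 were in the less positive group. Mpo was nearly absent from untreated PMN-MDSCs, with 7.34, 4.80 and 0. It had 244, 594 and 731 in lymphodepleted PMN-MDSCs, below the 10398, 2580.3 and 4296 in lymphodepleted M-MDSCs. Its response was 7.02 ± 0.92 in PMN-MDSCs and 7.00 ± 0.95 in M-MDSCs, and the difference of 0.02 ± 1.31 did not pass. Il18r1 fell by 2.02 ± 0.20 in M-MDSCs and had 387, 419 and 394 in untreated and 619.6, 534 and 567 in lymphodepleted PMN-MDSCs, a rise of 0.52 ± 0.19 there. The difference was 2.54 ± 0.27 (adjusted p = 3.83e-05).

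**Figure D5:**
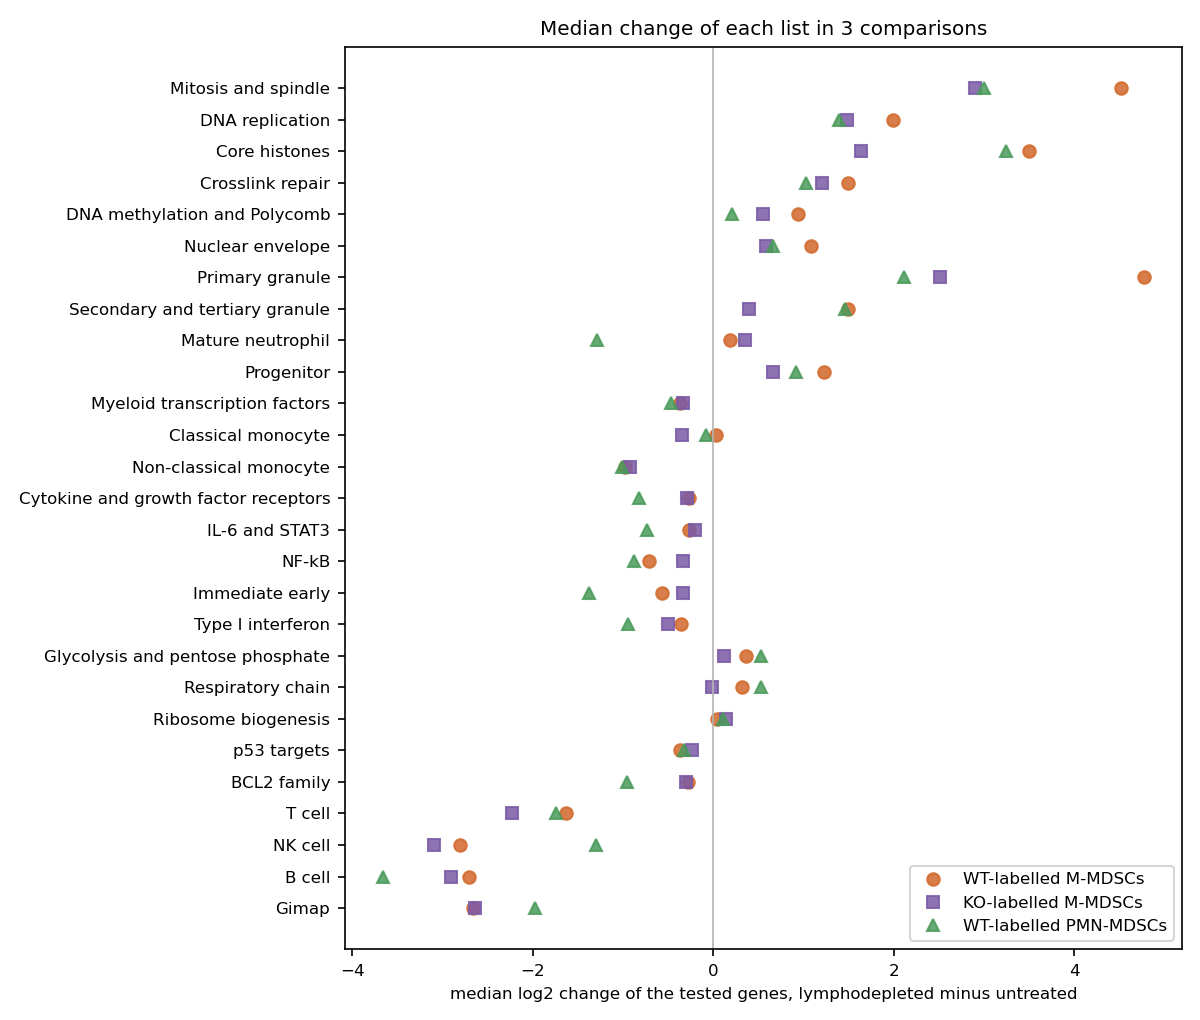
Median log2 change of the tested genes of each list, lymphodepleted minus untreated, in WT-labelled M-MDSCs (orange circles), KO-labelled M-MDSCs (purple squares) and WT-labelled PMN-MDSCs (green triangles). Mitosis, primary granule and histone medians are highest in WT-labelled M-MDSCs, and the mature neutrophil list is below 0 in PMN-MDSCs only. No test stands behind these differences between lists.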

How the data were processed

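Total RNA of sorted spleen MDSCs was sequenced in 24 libraries, and groups were taken from the labels. STAR 2.5.3a, HTSeq 0.6.1 and DESeq2 with the mm10 build are named in the submitters' processing notes. The sources used here do not give the annotation, strand setting, treatment of reads with several matches or DESeq2 version. Libraries were made from 100 ng of RNA after ribosomal RNA depletion, per the labels' protocols. The table deposited by the authors gives for every gene and library a signal, the read count over a scaling factor. In the 22 libraries where this could be checked, every value was a whole number of reads within 0.001 of a read once divided by the library's smallest value, so edgeR 4.0.16 and DESeq2 1.42.0 were run on recovered reads as alternatives. Genes that share reads with copies or with overlapping or antisense neighbours are uncertain.

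The main test was limma 3.58.1 (R 4.3.3, mean-variance trend) on log2(normalized count + 1), with 1 mean per group over the 12 M-MDSC libraries, which share 1 estimate of the spread, Benjamini-Hochberg adjustment over 11054 genes and a threshold of 0.05. The genotype interaction used the same fit, and the cell type interaction and the PMN-MDSC response used all 24 libraries. Tests were two-sided, and the scripts were tested on simulated data. Alternatives were another pseudocount, filter, normalization, test or set of libraries, the replicate number as a block, and each library left out. No 2 libraries were duplicates, and p-values measure the spread between 3 libraries per group, which the design text gives as 3 mice in each of the WT groups.

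The genes and the 54 gene lists were chosen with earlier results of these data known. Named genes were the 15 largest rises and falls with a mean of at least 100, the 10 largest changes in mean, up to 4 called and 2 uncalled members of each list, key and interaction genes, and members of lists whose genes have different roles. Mdm2, Nr4a3, Spic and Erg, and Orc1, Dtl, Ube2c and Kif18b for their promoters, were chosen after their values were seen. A few genes that the rule would name are not reported here. Positions were matched by symbol for 10312 genes and by synonym for 695, and promoters came from RefSeq for GRCm38.p6.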

Additional observations from a re-analysis of the deposited data

Results flagged for a closer look

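Response to lymphodepletion differed between groups by a test of the difference in 11 named genes. Between genotype labels, Nedd4 differed by -2.17 ± 0.29 log2 units (KO-labelled minus WT-labelled response, adjusted p = 0.0316), with the values given in the report.

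Between cell types (PMN-MDSC minus M-MDSC response), 5 genes were more positive in PMN-MDSCs. Mcam, an adhesion molecule, had 27.5, 34.1 and 25.5 normalized counts in untreated and 1.11, 0.774 and 0 in lymphodepleted M-MDSCs, and 72.2, 18.00 and 37.00 and 103, 199 and 158 in PMN-MDSCs, a difference of 6.25 ± 0.77 (adjusted p = 0.000253). It fell in each lymphodepleted M-MDSC library and the PMN-MDSC groups did not overlap, but its lymphodepleted M-MDSC values rest on at most 2 reads each. Il18r1 differed by 2.54 ± 0.27 (adjusted p = 3.83e-05). Acvrl1, a receptor of the TGF-beta family, differed by 3.28 ± 0.67 (adjusted p = 0.0199), with 177, 168 and 339.5 and 1785, 1258 and 3109 in PMN-MDSCs and overlapping groups in M-MDSCs. Ptgir, the prostacyclin receptor, differed by 3.28 ± 0.72 (adjusted p = 0.0304), and Cd55, a complement regulator, by 3.13 ± 0.67 (adjusted p = 0.0245).

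In 5 genes the response was less positive in PMN-MDSCs. Cxadr, a junction protein, differed by -5.29 ± 0.95 (adjusted p = 0.00935), Siglec5, an inhibitory lectin, by -4.93 ± 0.97 (adjusted p = 0.0164) and the transporter gene Slco4a1 by -4.59 ± 0.68 (adjusted p = 0.00129). Mgam, an intestinal and neutrophil glucosidase, differed by -4.43 ± 0.80 (adjusted p = 0.0101), with 11.8, 1.67 and 6.61 and 146, 101 and 135 in M-MDSCs and 2295, 1703 and 1752 and 1843, 1607 and 1852 in PMN-MDSCs. Tmem40 differed by -4.40 ± 0.68 (adjusted p = 0.00242). It had no read in untreated M-MDSCs, so that value depends on the added 1, and it did not pass with a pseudocount of 5 (-2.23, adjusted p = 0.0748). Over the 12 fits without 1 library, Mcam, Il18r1, Cxadr, Slco4a1, Mgam and Tmem40 kept their calls, and the other 4 did not. Acvrl1 was lost without lymphodepleted M-MDSC library 3 or untreated M-MDSC library 1 or untreated PMN-MDSC libraries 1 or 2, Ptgir without lymphodepleted M-MDSC libraries 2 or 3 or lymphodepleted PMN-MDSC library 3 or untreated M-MDSC libraries 1, 2 or 3 or untreated PMN-MDSC libraries 1, 2 or 3, Cd55 without lymphodepleted M-MDSC library 3 or untreated M-MDSC libraries 1, 2 or 3 or untreated PMN-MDSC library 2 and Siglec5 without lymphodepleted M-MDSC library 1 or untreated PMN-MDSC library 2. The highest adjusted p was 0.0668 for Acvrl1, 0.101 for Ptgir, 0.0813 for Cd55 (0.0524 with the 12 WT-labelled libraries alone) and 0.0553 for Siglec5. Groups of 3 libraries were not screened for outlying samples.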

How the results depend on the processing

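With the spread estimated over all 24 libraries, 814 genes were called in the lymphodepletion comparison, 575 higher and 239 lower, so that 70.6% of calls were higher against 52.1% in the fit reported. The cause was not tested. Without 1 library the total ran from 1134 to 2401, with 689 to 1168 higher and 445 to 1233 lower, and these fits have fewer samples. Under the other settings the counts of higher and lower calls stayed within 1.5 times the reported ones. Of the 191 named genes tested, 158 were called, and 136 of these kept the call without any single library. All 24 libraries ended 30 calls, edgeR 7, no filter 5, quantile normalization 4, DESeq2 1, the replicate block 3, and the other pseudocounts, the filter over all libraries and the 6 libraries alone ended none. Outside the fit on all 24 libraries the calls ended were those of Trp53inp1, Samhd1, Bcl6, Csf1r, Ptprc, Jak1 and Aim2. Of the 33 named genes not called, 7 gained a call with the 6 libraries alone (Btg2, Cd274, Ctsc, F13a1, Il6ra, Stat3 and Tgfb1), F13a1 also with DESeq2 and Tgfb1 also without lymphodepleted library 1. Genes whose difference changed sign were not called. Gins4 was at -0.044 with quantile normalization and ran from -0.023 to 0.16 without 1 library, negative without untreated library 1. Spic ran from -0.72 to 0.11, positive without lymphodepleted library 3.

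The genotype interaction called 2 genes with a pseudocount of 5, 2 with edgeR, 72 with DESeq2, 0 with the replicate block, 0 over all 24 libraries, 0 with quantile normalization and 0 to 7 without 1 library. For Nedd4 the adjusted p was 0.0541 with quantile normalization, 0.126 with the block and 0.817 with all 24 libraries, and the estimate stayed near -2.17. The cell type interaction called 161 genes without a filter, 134 of them less positive in PMN-MDSCs, and 512 with DESeq2, 184 more and 328 less positive. Without 1 library it called 28 to 246, with 6 to 79 more and 22 to 167 less positive. The causes were not tested.

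Replicate numbers did not pair the 2 groups compared. Deviations of same-numbered untreated and lymphodepleted WT-labelled M-MDSC libraries correlated at -0.08, -0.13 and 0.00 over genes, and none of these 6 correlated best with its own number in the other group. Between KO-labelled untreated and WT-labelled lymphodepleted libraries, which were not compared, the values were 0.16, 0.13 and 0.25, each library correlating best with its own number, and within the KO label 0.10, -0.28 and -0.15. With the replicate block, 978 genes were called higher and 871 lower. The block called 76 genes in the cell type interaction, 19 more and 57 less positive. Totals of 7237462 to 11193088 reads per library and 3 libraries per group limit the precision.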
